A study of Ovis aries with 57 samples.

Results

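On day 16 of pregnancy in sheep (Ovis aries), the surface lining of the uterus and its glands were compared gene by gene. Luminal epithelium (LE) is the cell layer that faces the uterine cavity and the conceptus, and glandular epithelium (GE) lines the uterine glands below it. The members are the 4 Day 16 LE libraries (replicates 25, 27, 29 and 31) and the 4 Day 16 GE libraries (replicates 26, 28, 30 and 32), 8 of the 57 libraries of the series. They were chosen by the tissue and day in their labels. No measured value entered that rule, although earlier results of these data were known. In all 25174 genes could be joined between the LE and GE tables by Ensembl identifier, and 11131 of them were tested, namely those with RPKM values of at least 1 in 4 or more of the 40 LE and GE libraries. RPKM is the number of reads of a gene scaled to its exon length in kilobases and to the mapped reads of the library.

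The whole series covers LE and GE on days 10, 12, 14, 16 and 20 and the conceptus from day 12 on. All animals were pregnant, and no treatment, genotype or breed is named in the labels for any group. Frozen cross-sections of the uterine horn on the side of the ovulating ovary were stained, LE and GE were recognised by eye, and each was cut out by laser from the same slide of an animal, after the conceptus had been flushed out. The RNA was amplified with a single-primer isothermal method (SPIA) before sequencing, in LE and GE alike. An amplified RNA can depart from the proportions in the cell, and each value describes the amplified material.

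In ruminants the trophoblast of the elongating conceptus secretes interferon tau, which acts on the uterus to keep the corpus luteum and its progesterone. Interferon acts through paired receptors and transcription factors to switch on a broad set of antiviral genes. In the sheep uterus progesterone and interferon tau also induce in LE a set of secreted proteins, enzymes and carriers that feed the elongating conceptus, and glands add their own secretions. Adhesion of trophoblast to LE begins at about this stage.

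Exon reads ranged from 3.97 to 7.59 M in the LE libraries and from 4.58 to 6.37 M in the GE libraries. The share of exon reads on genes of the mitochondrial genome was 10.02 to 20.27% for LE and 0.40 to 1.88% for GE. Between 6854 and 7962 genes reached 1 RPKM in the LE libraries and between 8186 and 9161 in the GE libraries. The 10 most abundant genes took 14.89 to 22.66% of exon reads in LE and 5.39 to 6.51% in GE. The LE and GE values come from separate tables, in which each library is scaled to its own mapped reads, so these shares move every other RPKM value. For that reason calls are given as deposited and after TMM scaling, a rescaling that lines up the bulk of the genes. The median LE minus GE difference of all tested genes was -0.30 on the log2(RPKM + 1) scale as deposited and -0.06 after TMM.

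LE and GE differed in 2503 genes (22.5% of those tested) in limma with a Benjamini-Hochberg adjusted p under 0.05. As deposited, 753 genes were higher in LE (6.76%) and 1750 were higher in GE (15.7%), so that 30.1% of the calls were on the side of LE. After TMM scaling 1002 genes were higher in LE (9.00%) and 990 in GE (8.89%), and 50.3% of the calls were on the side of LE. All 4 LE libraries stood above all 4 GE libraries for 1154 genes (10.4%), and the reverse held for 2818 genes (25.3%). Differences below are LE minus GE on the log2(RPKM + 1) scale, so positive values are higher in LE, and for genes near 0 in one tissue this scale understates the ratio. Counts within gene lists below stand against 6.76% (LE) and 15.7% (GE) of all tested genes as deposited. After TMM these shares were 9.00 and 8.89%.

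**Figure D1:**
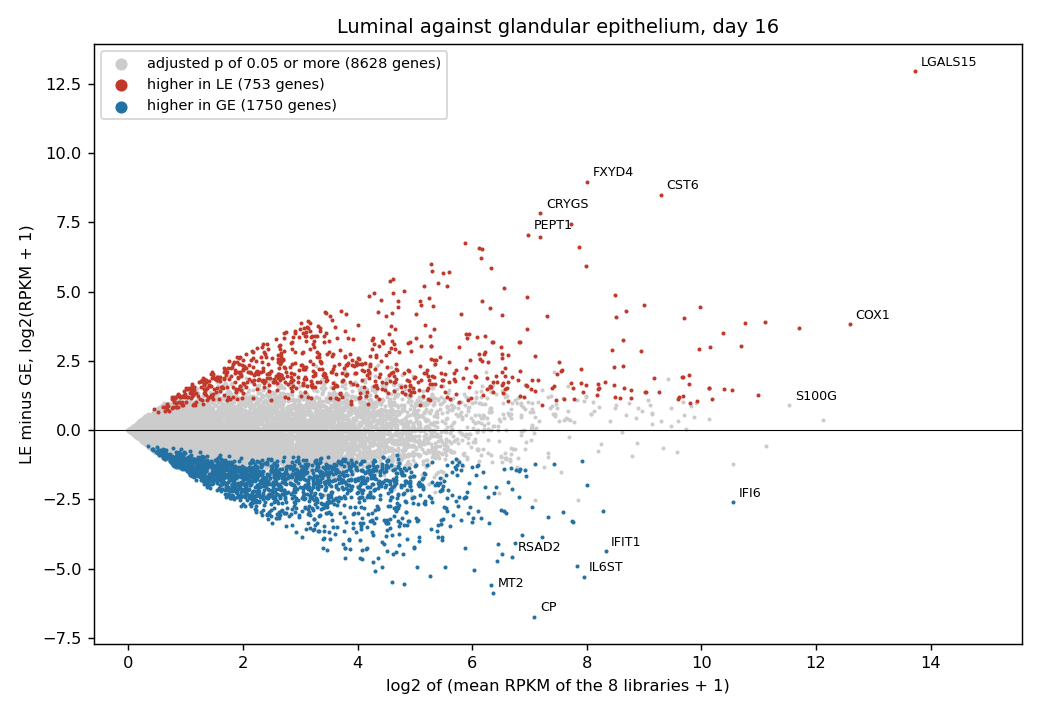
The log2(RPKM + 1) difference of each of the 11131 tested genes (LE minus GE, vertical axis) is plotted against the log2 mean RPKM of the 8 libraries (horizontal axis), in red for the 753 genes higher in LE and in blue for the 1750 higher in GE. LGALS15, at a difference of 12.95, stands alone at the top right, and CP, at -6.73, lies lowest.

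The largest differences on the side of LE included a galectin, a protease inhibitor, a regulator of the sodium pump and a peptide carrier. LGALS15 (ENSOARG00000019088), a galectin secreted by ovine LE and known as a partner of trophoblast attachment, stood at 21207, 12270, 42110 and 32680 RPKM in LE replicates 25, 27, 29 and 31, and at 1.71, 0.37, 19.75 and 0.19 RPKM in GE replicates 26, 28, 30 and 32. Every LE library lay far above every GE library, and the difference was 12.95 ± 1.17 (standard error, adjusted p = 2.66e-10). Related galectin genes could share reads with LGALS15, so its exact level is uncertain. CST6, an inhibitor of cathepsin proteases, stood at 1425.9, 719.4, 806.6 and 2053.5 RPKM in LE and at 3.16, 1.89, 2.03 and 1.79 RPKM in GE. The lowest LE library still lay far above the highest GE library (difference 8.49, adjusted p = 1.3e-09).

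FXYD4, a small regulator of the sodium pump, was at 625.5, 422.8, 390.5 and 613.7 RPKM in LE and was listed at 0 in all 4 GE libraries (adjusted p = 2.66e-10). PEPT1, the carrier that takes up short peptides, was at 316.3, 162.7, 226.1 and 292.4 RPKM in LE and at 1.34, 0.51, 0.62 and 0.94 RPKM in GE (difference 7.05, adjusted p = 1.44e-10). AGR2, a disulfide isomerase of mucus-secreting cells, was at 419.4, 349.1, 190.4 and 193.9 RPKM in LE and at 1.97, 2.38, 0.27 and 0.75 RPKM in GE (difference 6.97, adjusted p = 7.75e-06). In each of these the LE and GE libraries were far apart. CRYGS, which encodes a lens crystallin, was at 193.3, 221.9, 293 and 450.6 RPKM in LE and reached 0.58 RPKM at most in GE (difference 7.82, adjusted p = 2.35e-08). NOSTRIN, which binds and moves nitric oxide synthase, LY6G6C, a membrane-anchored protein, CDH17, an adhesion molecule of the cadherin family, and CD55, which restrains complement, completed this side together with the enzymes below. Their differences were 5.86, 5.68, 5.45 and 5.72 (adjusted p = 3.11e-06, 1.95e-07, 1.44e-10 and 1.07e-06), with no overlap between the groups.

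**Figure D2:**
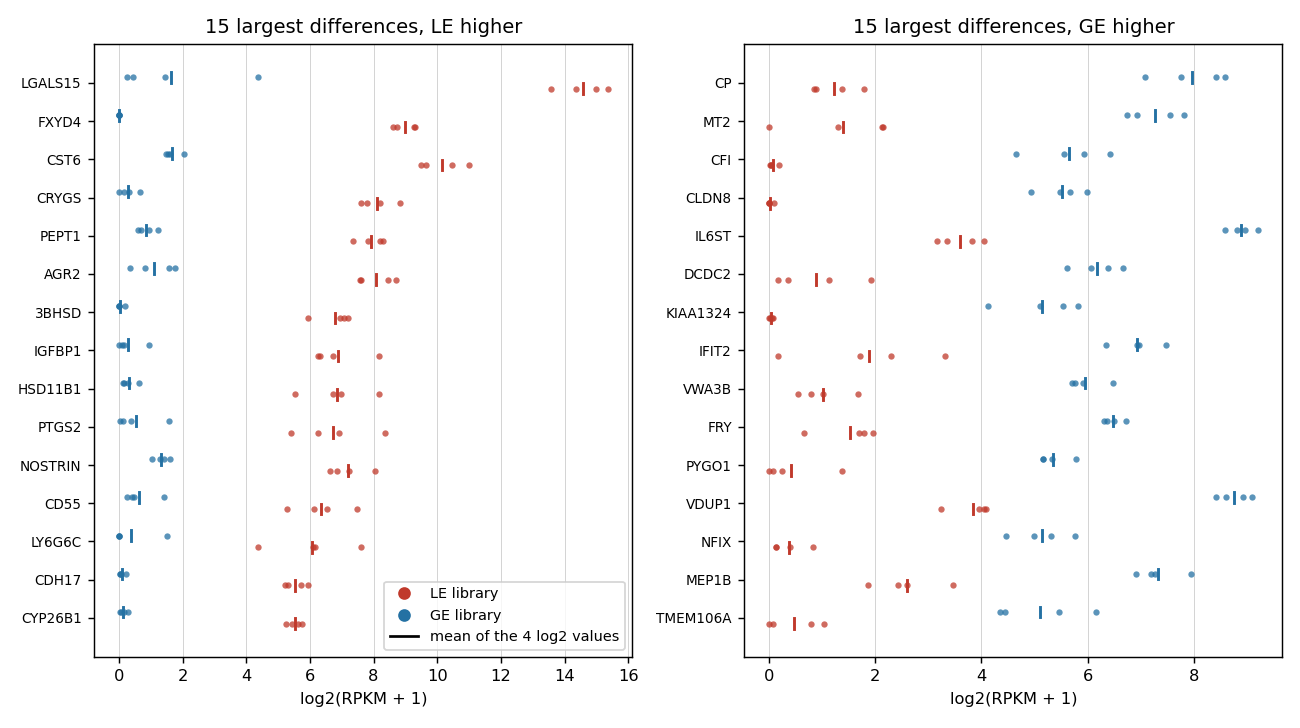
Dots give log2(RPKM + 1) in each of the 4 LE (red) and 4 GE (blue) libraries for the 15 genes with the largest difference on each side, and vertical ticks give the mean of the 4 log2 values. In no gene shown do red and blue dots overlap, as the selection required, and LGALS15 in GE replicate 30, at 19.75 RPKM, lies above the other GE libraries.

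Several single enzymes that make or modify local hormones were higher in LE. PTGS2, which makes the precursor of all prostaglandins, was at 325.6, 118.9, 75.47 and 41.25 RPKM in LE and at 0.02, 1.97, 0.31 and 0.09 RPKM in GE (difference 6.2, adjusted p = 8.85e-08). Replicate 25 was highest, and the lowest LE library still exceeded the highest GE library. Of 14 tested genes of prostaglandin synthesis, transport and reception, 4 were higher in LE and 0 in GE (median difference 0.25 against -0.30 over all tested genes, and 5 and 0 after TMM). Besides PTGS2 these were PTGES, a prostaglandin E synthase, at 4.33, 3.15, 15.93 and 45.14 RPKM in LE and 0.20 RPKM at most in GE (adjusted p = 9.19e-05), the prostaglandin E receptor PTGER3 (2.39, adjusted p = 8.92e-05) and PTGS1, the sister enzyme of PTGS2. PTGS1 was low in both tissues, at 1.242 ± 0.8978 (SD, n = 4) and 0.19 ± 0.2835 RPKM, its groups overlapped, and its call (adjusted p = 0.0212) was lost on leaving out any of LE replicates 27, 29 and 31 and GE replicates 26 and 30.

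HSD11B1, which regenerates active cortisol from cortisone, was at 288.8, 104.9, 125.2 and 45.79 RPKM in LE and 0.56 RPKM at most in GE (difference 6.55, adjusted p = 4.23e-08). The gene listed as 3BHSD, which makes progesterone from pregnenolone, was at 132.8, 60.56, 145.6 and 122.7 RPKM in LE and was listed at 0 in GE replicates 26, 28 and 32 and at 0.14 RPKM in replicate 30 (adjusted p = 1.3e-09). CYP26B1, which breaks down retinoic acid, was at 37.47 to 53.15 RPKM in LE and 0.03 to 0.23 RPKM in GE (adjusted p = 8.37e-08). Each of these enzymes was abundant in every LE library and below 1 RPKM in every GE library. IGFBP1, which binds insulin-like growth factors and is a marker of the receptive ovine uterus, was at 289.5, 104.7, 75.83 and 78.31 RPKM in LE and 0.92 RPKM at most in GE (difference 6.57, adjusted p = 6.06e-08).

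A list of 23 tested genes that LE is known to express around conceptus elongation held 10 genes higher in LE and 1 higher in GE (median 1.05, and 11 and 0 after TMM). Several of these genes were first described in this species and tissue, so their direction here is no independent evidence. Cystatin C, which inhibits cathepsins outside the cell and is listed as ENSOARG00000006202, was at 1677.4, 639.4, 1159.6 and 2791.8 RPKM in LE and at 50.99, 61.07, 65.68 and 215.1 RPKM in GE (difference 4.05, adjusted p = 2.19e-05). The groups did not overlap, although GE replicate 32 stood well above the other GE libraries. SLC2A1, the facilitative glucose carrier, was at 214.9, 137.1, 144.6 and 197.8 RPKM in LE and 11.19, 6.88, 6.88 and 10.16 RPKM in GE (difference 4.16, adjusted p = 2.52e-06). SLC5A1, the sodium-coupled glucose carrier, did not pass: it was at 34.19, 4.43, 6.5 and 1.46 RPKM in LE and 1.96, 7.97, 2.92 and 1.45 RPKM in GE (adjusted p = 0.528), and the groups overlapped.

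Of 22 tested carriers of glucose, lactate and amino acids, 6 were higher in LE and 2 in GE (median 0.00, and 6 and 1 after TMM). SLC16A1, a lactate carrier, was at 40.61, 34.72, 10.23 and 11.36 RPKM in LE and 0.18 RPKM at most in GE (difference 4.31, adjusted p = 8.85e-08). SLC7A2, a carrier of arginine and other cationic amino acids, was at 5.28 to 13.26 RPKM in LE and 0.09 RPKM at most in GE (adjusted p = 0.000196). SLC38A2, a carrier of neutral amino acids, went the other way, at 2.67 to 9.22 RPKM in LE and 32.83 to 59.64 RPKM in GE (difference -2.89, adjusted p = 1.51e-05). Of 24 genes of ion, water and mineral transport, 5 were higher in each tissue (5 in LE and 1 in GE after TMM). The chloride channel CFTR was at 17.3 to 29.46 RPKM in LE and 1.32 to 5.06 RPKM in GE (adjusted p = 4.72e-05), and SLC12A2, which loads cells with chloride, was also higher in LE (2.79, adjusted p = 0.000886). SLC39A8, a zinc and manganese carrier, was at 6.88 to 32.62 RPKM in LE and 0.19 to 2.45 RPKM in GE (adjusted p = 3.76e-05). S100G, a calcium-binding protein that was among the most abundant transcripts of both tissues, did not differ in the test: it was at 1568, 3784.1, 2846.5 and 6271.2 RPKM in LE and 3653.7, 1796.8, 3389.7 and 394.6 RPKM in GE (difference 0.90, adjusted p = 0.498).

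At the cell surface, 8 of 22 tested mucins, integrins and attachment genes were higher in LE and 1, LGALS8, in GE (median 0.88, and 10 and 0 after TMM). ITGB6, an integrin beta chain, was at 8.54, 8.47, 14.79 and 15.42 RPKM in LE and at 0.95, 0.04, 0.10 and 0.68 RPKM in GE (difference 3.15, adjusted p = 1.29e-06). ITGA5, the alpha chain of the fibronectin receptor, was at 2.46 to 9.51 RPKM in LE and 0.34 RPKM at most in GE (adjusted p = 2.26e-05). The groups were apart in both integrins. MUC16, a large membrane mucin, was at 13, 5.27, 5.19 and 6.48 RPKM in LE and at or below 0.02 RPKM in GE (difference 2.97, adjusted p = 0.00181), and MUC20, another membrane mucin, and the tetraspanin CD9 were also higher in LE (2.79 and 1.88, adjusted p = 0.00171 and 0.00377). MUC1, the mucin best known for its loss from the receptive surface, was at 10.73, 2.85, 3.92 and 4.83 RPKM in LE and 19.41, 7.1, 7.76 and 14.72 RPKM in GE, which overlapped (difference -1.03, adjusted p = 0.278). The gene listed as OST, which encodes the integrin ligand osteopontin, did not pass either (-0.49, adjusted p = 0.68).

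Junction genes split evenly, with 5 of 24 higher in each tissue (5 and 5 after TMM as well). CLDN4, a sealing claudin, was at 132, 83.76, 93.73 and 235 RPKM in LE and 11.89, 9.96, 7.6 and 15.42 RPKM in GE (difference 3.41, adjusted p = 0.000219). CLDN8, a claudin of tight barriers, showed the opposite, listed at 0 in LE replicates 25, 27 and 29 and at 0.07 RPKM in replicate 31, against 29.58, 49.57, 62.78 and 43.68 RPKM in GE (adjusted p = 6.62e-09). CLDN10, a pore-forming claudin, was listed at 0 in all LE libraries and was at 4.01, 2, 6.81 and 7.83 RPKM in GE (adjusted p = 0.000204). So these claudins separated the tissues completely, in both directions. The desmosome genes on the list that were called, DSC2, PKP2 and DSG2, were higher in GE (differences -3.61, -3.01 and -1.51, adjusted p = 4.52e-08, 4.84e-06 and 0.0024).

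All 13 protein genes of the mitochondrial genome passed the filter, and 11 of them were higher in LE and 0 in GE, with a median difference of 3.5 (11 and 0 after TMM, median 3.93). COX1, a subunit of cytochrome c oxidase, was at 12294, 13764, 12201 and 7187.2 RPKM in LE and at 1217, 1001.9, 1207.4 and 253.4 RPKM in GE (difference 3.82, adjusted p = 2.34e-09). CYT.B, the cytochrome of complex III, and ND4, of complex I, showed the same order (3.91 and 3.67, adjusted p = 3.53e-07 and 8.85e-08). GE replicate 32 was the lowest library in each of these genes. Nuclear genes of the respiratory chain and its control moved less: 11 of 35 were higher in LE and 2 in GE (median 0.89, and 16 and 0 after TMM). COX6B1, a nuclear subunit of the same oxidase, was at 587, 377.6, 451.8 and 1014.7 RPKM in LE and 52.49, 52.91, 89.7 and 126.3 RPKM in GE (difference 2.90, adjusted p = 6e-05), and COX7A2 and ATP5O were also higher in LE (2.37 and 1.58, adjusted p = 4.66e-05 and 0.000968). The 2 on the side of GE were NRF1 and PPARGC1A, which control transcription of such genes, and neither passed after TMM.

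Among 31 genes of the endoplasmic reticulum and its stress response, 4 were higher in LE and 2 in GE (6 and 2 after TMM). The ones higher in LE belong to import and folding: DNAJB11, a co-chaperone, was at 73.55, 70.91, 30.11 and 36.28 RPKM in LE and 4.57, 7.78, 3.82 and 8.84 RPKM in GE (difference 2.85, adjusted p = 0.000291), and SEC11C, of the signal peptidase, differed by 2.71 (adjusted p = 0.00888). The 2 higher in GE are transcription factors, ATF4 (-2.13, adjusted p = 0.000761) and CREB3L1 (-2.44, adjusted p = 0.000593). In lipid metabolism 2 of 25 genes were higher in LE and 1 in GE (5 and 0 after TMM), which as deposited is near the 6.76% of all tested genes for LE and below the 15.7% for GE. FASN, the fatty acid synthase, was at 14.1 to 18.78 RPKM in LE and 1.53 to 3.25 RPKM in GE (adjusted p = 0.00143). CPT1A, which brings fatty acids into mitochondria, differed by 1.96 (adjusted p = 0.00969), a call lost without GE replicate 32.

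**Figure D3:**
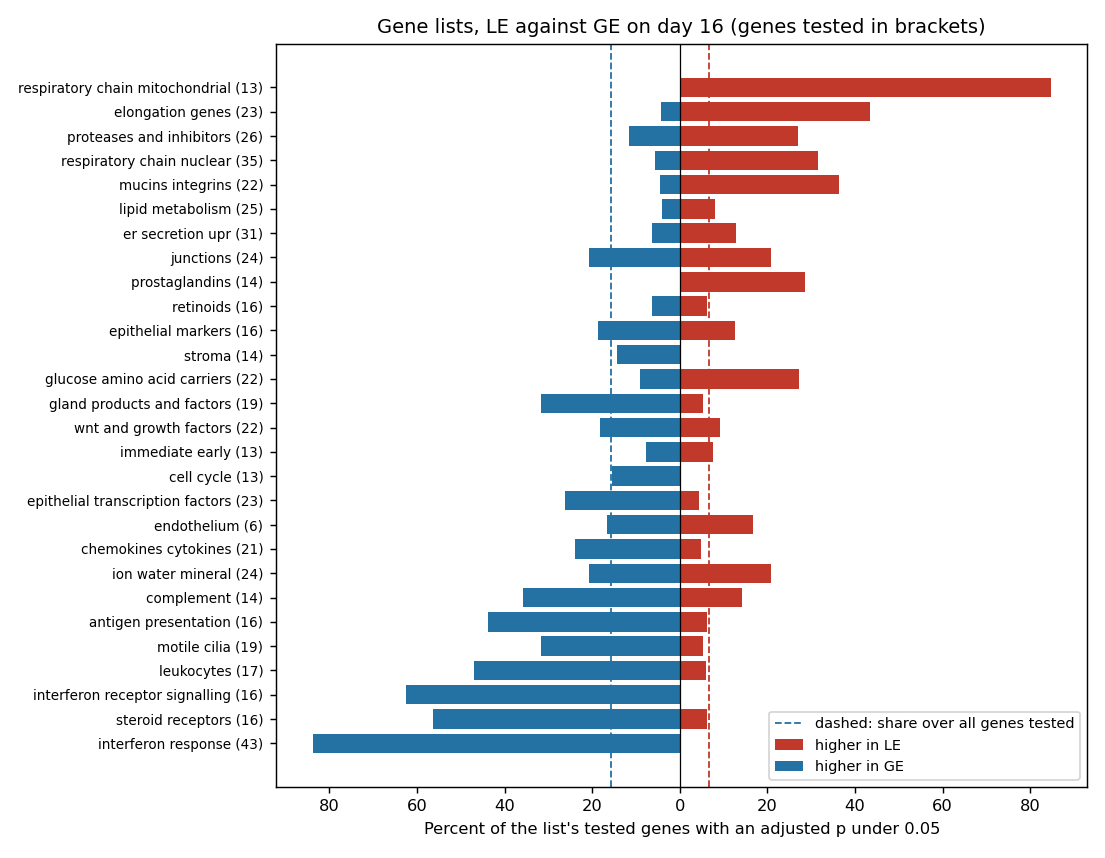
Bars give the percent of each list's tested genes that were higher in LE (red, to the right) or in GE (blue, to the left) in limma on the values as deposited, with the number tested in brackets and dashed lines at the shares over all 11131 genes (6.76 and 15.7%). Interferon response genes extend farthest to the left, with 36 of 43, and respiratory chain genes of the mitochondrial genome farthest to the right, with 11 of 13.

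Interferon response genes made up the list with the highest share of genes higher in GE. Of 43 tested interferon response genes, 36 were higher in GE and 0 in LE, against 15.7 and 6.76% of all tested genes, and the median difference was -2.60. After TMM scaling 34 were higher in GE (median -2.18), and edgeR's quasi-likelihood test on recovered reads called 24, all on the side of GE. Leaving out 1 library at a time gave 34 to 36. RSAD2, which halts viral replication at membranes, was at 7.75, 6.06, 4.89 and 8.03 RPKM in LE and at 366.8, 139.2, 167 and 120.3 RPKM in GE (difference -4.57 ± 0.66, adjusted p = 2.37e-06). IFIT1, which binds foreign RNA, was at 10.4, 37.51, 37.25 and 39.6 RPKM in LE and 739.6, 538.2, 702.4 and 455.1 RPKM in GE (-4.38, adjusted p = 4.19e-05). In both genes the lowest GE library lay well above the highest LE library. The gene listed as ISG17, the ubiquitin-like ISG15 protein that is a classical marker of pregnancy in the ruminant uterus, was at 10.71, 9.12, 20.94 and 22.16 RPKM in LE and 265.6, 172.7, 197.9 and 226 RPKM in GE (-3.77, adjusted p = 0.00214).

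IFI6, a mitochondrial antiviral protein and the most abundant gene of the list, was at 909.4, 92.25, 411.8 and 752.5 RPKM in LE and 2006.9, 2673.8, 2330.1 and 2814.4 RPKM in GE (-2.60, adjusted p = 0.0106). LE replicate 27 was low for IFI6, and without it the call was lost. The RNA sensor DDX58, the ubiquitin-like ligase HERC5 and the nucleotide kinase CMPK2 differed by -4.25, -3.84 and -3.66 (adjusted p = 0.00012, 3.98e-07 and 9.85e-07), with all GE libraries above all LE libraries. IFIT2, of the same family as IFIT1, was at 0.13, 8.92, 3.93 and 2.29 RPKM in LE and 176.4, 120.2, 124.1 and 80.6 RPKM in GE (-5.05, adjusted p = 1.06e-06).

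MX1, a dynamin-like antiviral protein, was the member with the highest level in LE after IFI6. It stood at 95.45, 62.53, 87.13 and 85.28 RPKM in LE and at 347.8, 191.3, 212.4 and 132.7 RPKM in GE, without overlap, and did not pass the test (-1.34, adjusted p = 0.0926). With the spread of the day 16 libraries alone its adjusted p was 0.00656, and with assumed pairs of LE and GE 0.0315. The related MX2 did pass, at 1.24, 11.55, 19.76 and 12.82 RPKM in LE and 50.06, 137, 116 and 47.13 RPKM in GE (-3.07, adjusted p = 0.00854), though not without LE replicate 25. MX1 and IFI6 transcripts were thus present in every LE library.

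**Figure D4:**
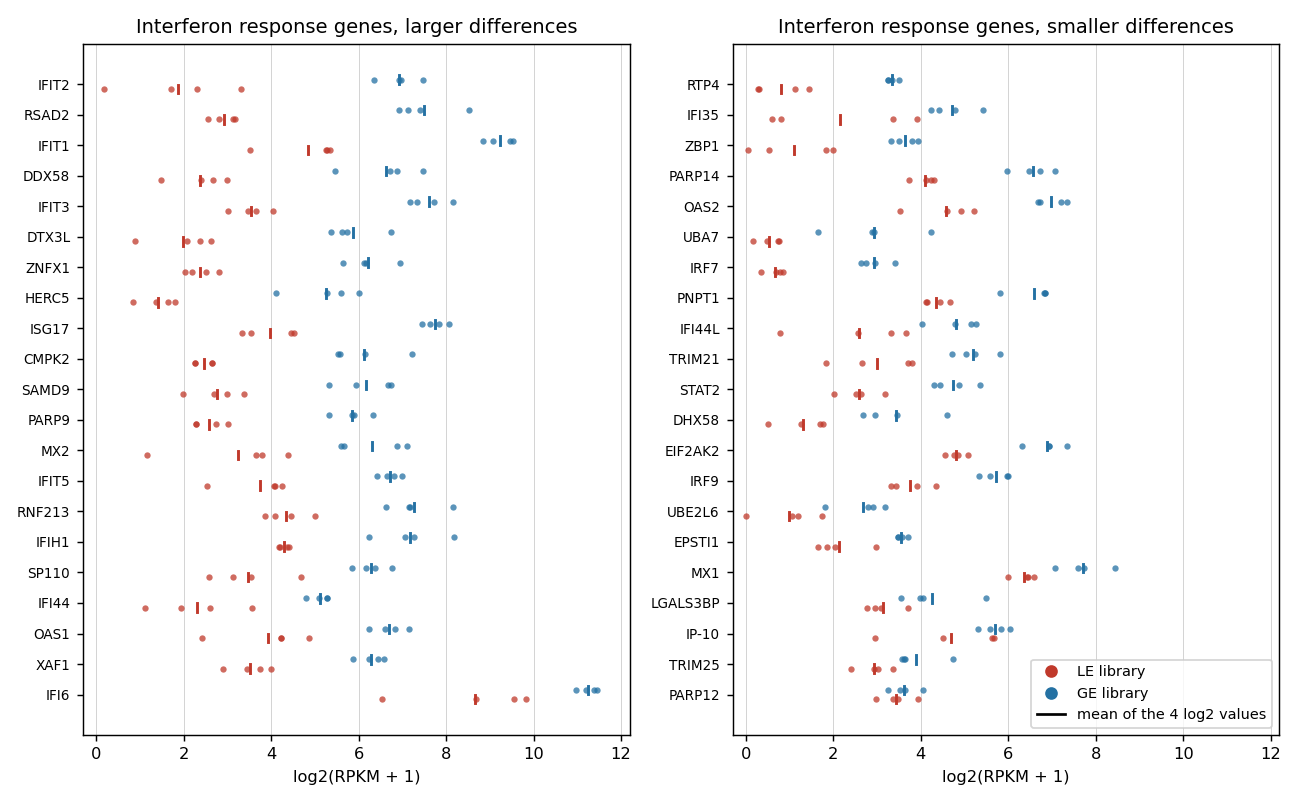
Each row is an interferon response gene, with 42 of the 43 tested shown, ordered by difference from the largest on the side of GE, with log2(RPKM + 1) in the 4 LE (red) and 4 GE (blue) libraries and ticks at the mean of the 4 log2 values. Blue dots lie to the right of red dots for RSAD2, IFIT1 and most others, and MX1 and PARP12 near the end of the right panel did not pass the test.

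Genes that receive and pass on the interferon signal leaned to GE as well, with 10 of 16 higher in GE and 0 in LE (median -1.42, and 6 and 0 after TMM). IFNAR2, a chain of the receptor for type I interferons such as interferon tau, was at 0.08, 0.11, 0.75 and 0 RPKM in LE and 10.24, 4.9, 7.98 and 3.71 RPKM in GE (-2.60, adjusted p = 7.54e-05). STAT2, a transcription factor of the interferon signal, was at 3.05 to 8.12 RPKM in LE and 18.72 to 40.09 RPKM in GE (-2.16, adjusted p = 0.0036). IRF1, an activating factor, reached 0.87 RPKM at most in LE and was at 3.41 to 9.9 RPKM in GE (-2.43, adjusted p = 0.000157). In each of the 3 genes the highest LE library lay below the lowest GE library. IRF2, described in ovine LE as a repressor of interferon response genes, was at 55.61, 13.4, 14.84 and 12.94 RPKM in LE and 51.92, 18.06, 22.98 and 27.85 RPKM in GE. The groups overlapped, and no difference was found (-0.49, adjusted p = 0.75). Of 16 genes of antigen presentation, 7 were higher in GE and 1 in LE (median -0.95, and 6 and 2 after TMM). PSMB9, of the immunoproteasome, TAP1, the peptide transporter, and ERAP2, which trims peptides, differed by -2.45, -2.47 and -2.43 (adjusted p = 0.000233, 0.00139 and 3.64e-05). CTSS, a cathepsin that prepares class II molecules, was the 1 higher in LE (2.39, adjusted p = 0.000467).

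Of 16 receptors for steroid hormones and their partners, 9 were higher in GE and 1, the enzyme HSD11B1, in LE (median -1.61, and 6 and 2 after TMM). PGR, the progesterone receptor, was at 0.26, 1.4, 0.37 and 0.69 RPKM in LE and at 51.04, 11.76, 17.84 and 8.21 RPKM in GE (-3.5 ± 0.54, adjusted p = 7.59e-06). GE replicate 26 was highest, and the lowest GE library was well above the highest LE library. ESR2, an estrogen receptor, was at 0.19 to 0.69 RPKM in LE and 5.86 to 11.61 RPKM in GE (-2.81, adjusted p = 0.000273). ESR1, the main uterine estrogen receptor, was at 13.97, 12.75, 8.72 and 3.29 RPKM in LE and 50.92, 34.45, 33.4 and 21.56 RPKM in GE. Its adjusted p was 0.021 as deposited and 0.0753 after TMM, and the call was lost without LE replicate 31 or GE replicate 26. NCOA1, a coactivator of these receptors, and FKBP5, a chaperone whose gene is induced by steroid receptors, were higher in GE (-2.98 and -3.47, adjusted p = 2.38e-06 and 3.12e-05).

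Gland products and factors formed a mixed group: 6 of 19 were higher in GE and 1 in LE (median -0.13, and 3 and 2 after TMM). PRLR, the receptor for prolactin and placental lactogen, which in the ovine uterus is a marker of glands, was at 7.1, 2.03, 3.16 and 8.53 RPKM in LE and 86.24, 28.82, 34.65 and 87.64 RPKM in GE (-3.26, adjusted p = 1.93e-06). FOXA2, the transcription factor that marks glands, was listed at 0 in all LE libraries and was at 0.15, 0.52, 0.90 and 1.1 RPKM in GE, a low level (adjusted p = 0.0232, and 0.0541 after TMM), and the call was lost without GE replicate 30 or 32. SERPINA14, the uterine serpin secreted by glands, was at 2.33, 3.4, 4.13 and 2.17 RPKM in LE and 42.87, 53.21, 43.42 and 24.34 RPKM in GE. The 2 groups were far apart, and the adjusted p was 0.0337 as deposited and 0.0679 after TMM, with the spread shared over all days. Leaving out any day 16 library except GE replicate 32 also ended that call. GRP, a gland neuropeptide, divided the GE libraries: it was at 147 and 132.5 RPKM in replicates 26 and 28, listed at 0 in replicate 30 and at 19.03 RPKM in replicate 32, against 4.02, 4.47, 7.4 and 2.35 RPKM in LE (adjusted p = 0.261). LIFR (listed as ENSOARG00000009932), the receptor of leukaemia inhibitory factor, was the 1 higher in LE, at 98.97 to 143 RPKM against 28.49 to 55.18 RPKM in GE (1.56, adjusted p = 0.00677). STC1, a gland hormone, was at 2.57 RPKM or less in all 8 libraries (adjusted p = 0.627).

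The largest single differences on the side of GE came from other groups. CP, the copper-carrying ferroxidase ceruloplasmin, was at 2.46, 0.79, 1.61 and 0.86 RPKM in LE and 381.1, 340.5, 216.6 and 134.8 RPKM in GE (-6.73 ± 0.87, adjusted p = 3.63e-07). MT2, a metallothionein that binds zinc and copper, was at 3.42 RPKM at most in LE and at 120.6, 106.5, 187.7 and 223.9 RPKM in GE (-5.87, adjusted p = 4.62e-06). IL6ST, the signalling chain shared by receptors of the interleukin 6 family, was at 15.64, 8, 13.14 and 9.27 RPKM in LE and 447.8, 385.8, 590.4 and 495.9 RPKM in GE (-5.29, adjusted p = 1.44e-10). For each of these 3 genes every GE library lay far above every LE library. IL6R, which pairs with IL6ST, was also higher in GE, at 1.67 to 2.93 RPKM in LE and 43.62 to 65.71 RPKM in GE (-3.94, adjusted p = 1.81e-08). STAT3, which carries their signal, was at 1.79 to 5.96 RPKM in LE and 16.39 to 32.87 RPKM in GE (-2.40, adjusted p = 8.87e-05).

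The gene listed as VDUP1, which encodes the thioredoxin-interacting protein that restrains glucose uptake, was at 8.47, 15.59, 15.95 and 14.6 RPKM in LE and 341.3, 482.7, 546.2 and 388.3 RPKM in GE (-4.92, adjusted p = 1.25e-09). MEP1B, a secreted or membrane-bound metalloprotease, was at 2.65 to 10.03 RPKM in LE and 120 to 245.8 RPKM in GE (-4.74, adjusted p = 7.24e-06). DCDC2, a protein of the primary cilium, NFIX, a transcription factor, PYGO1, a coactivator in Wnt signalling, and FRY, a regulator of cell shape, differed by -5.28, -4.77, -4.93 and -4.95 (adjusted p = 1.58e-07, 3.46e-09, 9.85e-07 and 1.23e-09). KIAA1324, a membrane protein induced by estrogen in human endometrium, was at 0.06 RPKM at most in LE and 16.48 to 55.6 RPKM in GE (-5.10, adjusted p = 4.53e-13). VWA3B and TMEM106A, for which no role is stated here, differed by -4.95 and -4.62 (adjusted p = 4.18e-10 and 0.000179). None of these genes overlapped between the groups, as the selection of largest differences required.

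Complement genes differed in both directions. Of 14 tested, 5 were higher in GE and 2 in LE (5 and 2 after TMM). CFI, the protease that inactivates C3b and C4b, was at 0.02, 0.03, 0.03 and 0.14 RPKM in LE and 85.26, 46.17, 24.27 and 60.08 RPKM in GE (-5.57, adjusted p = 6.9e-09). Clusterin (listed as ENSOARG00000014790), a secreted chaperone that blocks the terminal complex, was at 5.01 to 17.25 RPKM in LE and 118.7 to 222.1 RPKM in GE (-4.12, adjusted p = 9.85e-07). C4BPA, SERPING1 and CD59, further inhibitors of the cascade, were higher in GE too (-3.06, -2.57 and -2.79, adjusted p = 1.48e-05, 0.00168 and 0.00294). CD55, an inhibitor at the membrane, was higher in LE, at 177.1, 92.91, 68.96 and 37.83 RPKM against 0.33, 1.67, 0.38 and 0.20 RPKM, as was the component C5. Each of these inhibitors thus favoured 1 tissue without overlap.

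Of 23 tested transcription factors of the epithelium, 6 were higher in GE and 1 in LE (median -0.36, and 4 and 1 after TMM). FOXO1, a factor induced in the decidualising human uterus, was at 3.19 to 16.55 RPKM in LE and 37.51 to 94.19 RPKM in GE (-2.64, adjusted p = 9.81e-05). PAX2, a factor of the ducts from which the uterus forms, was at 1.84, 0.85, 8.18 and 1.53 RPKM in LE and 39.6, 15.7, 26.07 and 26.22 RPKM in GE (-3.0, adjusted p = 0.00156). MSX2, a homeobox factor of the uterine lining, was the 1 higher in LE, at 2.91 to 10.37 RPKM against 0.05 to 1.24 RPKM (2.16, adjusted p = 0.00319). Of 22 Wnt and growth factor genes 2 were higher in LE and 4 in GE (2 and 3 after TMM), as deposited near the 6.76 and 15.7% of all tested genes. FST, which binds and blocks activins, was at 247.4 RPKM in LE replicate 25 and at 16.49, 19.2 and 13.14 RPKM in the others, against 0.79 RPKM at most in GE (4.78, adjusted p = 0.000104). IHH, a hedgehog ligand that in mouse relays progesterone action to the stroma, was listed at 0 in LE and was at 3.86, 2.48, 0.70 and 2.25 RPKM in GE (adjusted p = 0.00103), and TGFB2 reached 0.05 RPKM at most in LE and was at 2.1 to 14.1 RPKM in GE (-3.02, adjusted p = 8.87e-05).

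Proteases and inhibitors leaned to LE. Of 26 tested, 7 were higher in LE and 3 in GE (median 1.03 against -0.30 over all tested genes, and 11 and 2 after TMM). The LE share was above the 6.76% of all tested genes. Of 21 chemokine and cytokine genes 1 was higher in LE and 5 in GE (1 and 4 after TMM). Among these TNFSF10, a death ligand that interferon induces, was at 0.15 to 6.2 RPKM in LE and 19.33 to 55.85 RPKM in GE (-3.26, adjusted p = 0.00323). Retinoid genes gave 1 call on each side among 16 and immediate early genes 1 on each side among 13. In the cell cycle list, 2 of 13 were higher in GE and 0 in LE, a share in GE near the 15.7% of all tested genes. MCM7, a replication helicase subunit, was at 1.067 ± 0.085 RPKM in LE and 9.628 ± 6.565 RPKM in GE (SD, n = 4, adjusted p = 0.00559), highest in GE replicate 32, while the other called gene, MCM4, did not pass after TMM (adjusted p = 0.0666).

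Both tissues showed the epithelial identity of their labels, with the adhesion protein EPCAM at 216.3 ± 36.07 and 168.9 ± 23.48 RPKM and E-cadherin (CDH1) at 37.5 ± 4.266 and 46.05 ± 13.96 RPKM in LE and GE (SD, n = 4). Of 16 tested epithelial markers 2 were higher in LE and 3 in GE (4 and 3 after TMM), against 6.76 and 15.7% of all tested genes as deposited. Markers of other cells were present at varied levels, and some moved with the tissues. The leukocyte marker GZMA and the stromal marker DCN, given below, stood above the mean GE level of CDH1 in every GE library. Of 17 tested leukocyte markers 8 were higher in GE and 1, CD68, in LE (1 and 5 after TMM for LE and GE), and their summed level was 47.5 to 72.4 RPKM in LE and 174.9 to 248.1 RPKM in GE. PTPRC, carried by all leukocytes, was at 0.82, 1, 2.02 and 1.99 RPKM in LE and 14.96, 8.63, 10.82 and 9.23 RPKM in GE (-2.29, adjusted p = 0.000476). GZMA, of cytotoxic lymphocytes, was at 0, 14.26, 14.35 and 10.2 RPKM in LE and 91.43, 72.56, 86.14 and 53.27 RPKM in GE (-3.40, adjusted p = 5.35e-05), and CD3E, of T cells, was higher in GE as well (-2.60, adjusted p = 0.00634). In bulk captures fewer leukocytes and less RNA per leukocyte cannot be told apart. The part of leukocytes in the interferon difference was not tested.

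Of 14 tested stromal markers 2 were higher in GE and 0 in LE (1 and 0 after TMM), a share in GE near the 15.7% of all tested genes. Their summed levels were 48.2 to 131.4 RPKM in LE and 110.5 to 160.5 RPKM in GE. DCN, a matrix proteoglycan, was at 2.57, 10.79, 12.34 and 21.55 RPKM in LE and 97.99, 64.81, 84.13 and 73.19 RPKM in GE (-2.92, adjusted p = 0.00306), whereas VIM, a filament of mesenchymal cells, was at 21.9 ± 11.73 and 19.73 ± 11.68 RPKM (SD, n = 4). Of 19 motile cilia genes 6 were higher in GE and 1 in LE (2 and 1 after TMM). DNAH5, an axonemal motor, was at 0.17 to 0.62 RPKM in LE and 4.97 to 17.92 RPKM in GE (-3.01, adjusted p = 2.58e-07), and TEKT1, of ciliary microtubules, was at 10.85, 14.18, 2.38 and 1.67 RPKM in GE and 0.32 RPKM at most in LE (adjusted p = 0.026, and 0.0662 after TMM, lost without any of 5 libraries). FOXJ1, which defines ciliated cells, was at 0.03 ± 0.06 RPKM in LE and 0.7475 ± 0.6572 RPKM in GE (SD, n = 4). Endothelial genes gave 1 call each way among 6, KDR in LE and VWF in GE (2.13 and -2.01, adjusted p = 0.00491 and 0.00896). Smooth muscle markers summed to 0.7 RPKM at most and blood markers to 0.1 RPKM at most in every library.

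A trophoblast transcript was found at a low level in LE. TP-1, an interferon tau gene of the trophoblast, was listed at 0 in LE replicate 25 and was at 6.57, 2.81 and 12.69 RPKM in replicates 27, 29 and 31, against 0, 0, 0.19 and 0 RPKM in GE (difference 2.09, adjusted p = 0.000839). With DESeq2 on recovered reads the call was lost (adjusted p = 0.117). Interferon tau has several near-identical copies that could share reads. The day 16 conceptus averaged 6925 RPKM of TP-1, in a table made from RNA that was not amplified, and the highest LE library held 0.183% of that level. Among trophoblast factors, CDX2 was listed at 0 in 3 of the 4 LE libraries, TFAP2C in 3 and GATA3 in 3. Several genes high in LE were far lower in the day 16 conceptus: CRYGS averaged 17.45 RPKM there, 3BHSD 9.459 RPKM and LY6G6C 0.4678 RPKM, below every LE library. Other genes higher in LE than in GE were more abundant still in the conceptus than in any LE library, among them PTGS2 at 457 RPKM, CD55 at 290.5 RPKM, TSPAN1 at 741.3 RPKM and MOGAT1, a monoacylglycerol acyltransferase, at 254.1 RPKM. The LE libraries held 9.03 to 71.3% of the conceptus level of PTGS2 and 4.15 to 8.52% of that of MOGAT1.

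Most differences of day 16 had a counterpart on at least 1 other day. Of the 753 genes higher in LE on day 16, 51 (6.77%) were called the same way on all 4 other days and 211 (28.0%) on none, and of the 1750 higher in GE, 192 (11.0%) were called on all 4 and 384 (21.9%) on none. The days do not share libraries, though their tests share 1 estimate of the spread. Day 14, which had the most calls (974 in LE and 3011 in GE, 8.75 and 27.1% of all tested genes), shared 382 of the LE genes (50.7% of those of day 16 and 39.2% of those of day 14) and 1078 of the GE genes (61.6 and 35.8%). Its LE libraries reached 1 RPKM in 4528 to 5997 genes, against 6247 to 8741 in the LE libraries of the other days. The part of that in the calls of day 14 was not tested. Day 12 shared 212 LE genes (28.2% of day 16 and 62.9% of day 12) and 665 GE genes (38 and 65.1%). Day 20 shared 294 LE genes (39% of day 16 and 61.6% of day 20) and 549 GE genes (31.4 and 76.6%). With day 10, 113 LE genes were shared (15.0 and 38.3%), while 12 genes higher in LE and 15 genes higher in GE on day 16 were called the opposite way on day 10.

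Tested directly, few genes were called as setting day 16 apart. Against the mean LE minus GE difference of days 10, 12, 14 and 20, 71 genes had a greater difference on day 16 (0.638% of those tested) and 79 a smaller one (0.710%), in limma over all 11131 genes. These differences are signed, so a greater one is a shift to the side of LE and a smaller one a shift to the side of GE. EdgeR on recovered reads called 7 and 20. Leaving out single libraries moved these counts by over 1.5 times: the first fell to 42 without LE replicate 31 and to 44, 43 and 38 without GE replicates 26, 30 and 28. The second fell to 42, 51 and 52 without LE replicates 25, 27 and 31 and to 38, 43 and 49 without GE replicates 26, 28 and 30. In limma 1234 of the 11131 genes had an unadjusted p under 0.05, so a missing call does not show that a gene was alike across days.

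The interferon response list held 19 of the 79 smaller differences and 0 of the 71 greater ones, out of 43 tested (median -2.15, 16 and 0 after TMM, and 11 and 0 in edgeR). That count was 11 without LE replicate 25, 11 without GE replicate 26 and 12 without GE replicate 30, and 32 when day 14 was taken out of the mean. The summed level of the list, in which IFI6 weighs most, was 611.3 ± 189.2 RPKM in LE and 152.5 ± 52.2 RPKM in GE on day 10 (SD, n = 4 throughout), and 2065.8 ± 960.5 and 646.8 ± 347.1 RPKM on day 12. On day 14 it was 3312.1 ± 1250.5 RPKM in LE and 5400.4 ± 3565.5 RPKM in GE, and on day 16 1031.1 ± 369.5 and 6179.4 ± 718.2 RPKM. It came to 1316.4 ± 996.1 and 2546.6 ± 825.7 RPKM on day 20. So the sum was higher in LE on days 10 and 12, and on day 16 the 4 GE libraries (5530.1 to 7206.1 RPKM) lay entirely above the 4 LE libraries (540.5 to 1352.1 RPKM). By gene, 6 and 0 of the 43 were called higher in LE and GE on day 10 (2.65 and 11.6% of all tested genes), 3 and 0 on day 12 (3.03 and 9.17%), 0 and 25 on day 14 (8.75 and 27.1%) and 0 and 11 on day 20 (4.29 and 6.44%).

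**Figure D5:**
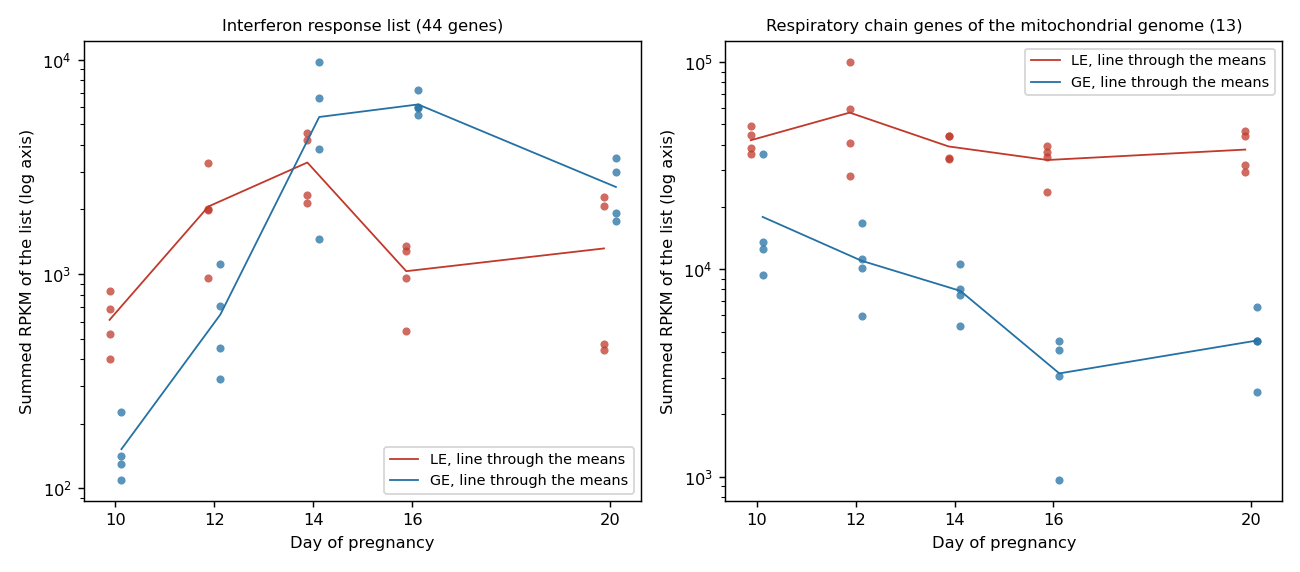
Summed RPKM of the 44 interferon response genes found (left) and of the 13 protein genes of the mitochondrial genome (right) in each LE (red) and GE (blue) library by day of pregnancy, on log axes, with lines through the group means. The interferon sum of GE passes that of LE by day 14 and stands at 6179.4 against 1031.1 RPKM on day 16, and the mitochondrial sum is lowest in GE on day 16, at 3150 RPKM.

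RSAD2 shows the course of a single gene. It was at 0.985 ± 0.7475 RPKM in LE and 0.5175 ± 0.3963 RPKM in GE on day 10, 25.72 ± 17.59 and 132.1 ± 56.06 RPKM on day 14, 6.682 ± 1.478 and 198.3 ± 113.9 RPKM on day 16, and 6.777 ± 4.398 and 40.94 ± 50.96 RPKM on day 20. Its day 16 difference was 3.75 below the mean of the other days on the log2 scale (-3.75, adjusted p = 0.00355). IFIT1, DDX58 and IFI6 gave -4.51, -4.13 and -3.79 (adjusted p = 0.00226, 0.00855 and 0.0112), where IFI6 rested on LE replicate 27. MX1, not called on day 16 itself, was higher on average in LE than in GE on days 10, 12 and 20 and lower on days 14 and 16 (-2.79, adjusted p = 0.0164), a call lost without GE replicate 26.

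CP was also among the shifts to the side of GE, with a wider gap between the tissues on day 16 than in the mean of the other days. In LE it averaged 186.4 ± 79.97 RPKM on day 10, 225.4 ± 211.7 on day 12, 7.075 ± 7.05 on day 14, 1.43 ± 0.7806 on day 16 and 65.62 ± 106.1 on day 20, while in GE it stayed between 168.8 and 268.2 RPKM (-4.57, adjusted p = 0.00758). The low level was not particular to day 16: single LE libraries were as low as 0.72 RPKM on day 14 and 0.34 RPKM on day 20. ACMSD, an enzyme of tryptophan breakdown, was at 15.12, 8.05, 4.34 and 0.16 RPKM in LE and 39.45, 23.11, 21.15 and 26.48 RPKM in GE on day 16, and averaged higher in LE than in GE on days 10, 12 and 14 but not on day 20, at 11.79 ± 16.42 and 16.07 ± 6.682 RPKM (-4.23, adjusted p = 0.0112, lost without LE replicate 31). Its own difference on day 16 had an adjusted p of 0.0405, and 0.108 after TMM, and was lost without any of 6 of the 8 libraries.

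Among differences greater on day 16, CRYGS came first. In LE it averaged 0.0225, 2.96 and 40.8 RPKM on days 10, 12 and 14, 289.7 ± 115.1 RPKM on day 16 and 11.42 ± 13.09 RPKM on day 20, and in GE it stayed at or below 1.262 RPKM (6.35, adjusted p = 0.000177). SLC13A5, a citrate carrier, was at 15.26, 8.36, 11.06 and 27.77 RPKM in LE on day 16 and averaged at most 3.462 RPKM in LE on the other days (3.72, adjusted p = 6.57e-05). MOGAT1 was at 21.66, 15.77, 10.55 and 14.01 RPKM in LE on day 16 and 0.12 RPKM at most in GE (3.52, adjusted p = 0.00164). In these 3 genes each LE library of day 16 lay above the LE mean of every other day. For CRYGS and SLC13A5 each also lay above every single LE library of the other days. For MOGAT1 the LE libraries of the days overlapped. Its highest LE library was at 13.21 RPKM on day 14 and 12.5 RPKM on day 20, above the lowest of day 16 (10.55 RPKM). LY6G6C, 3BHSD, CRYAB, a small heat shock protein, and TSPAN1, a tetraspanin, gave 4.12, 3.55, 3.90 and 3.96 (adjusted p = 0.00305, 0.00581, 0.0119 and 0.0114). On day 20, LY6G6C, 3BHSD, CRYAB and TSPAN1 were also higher on average in LE than in GE, as were CRYGS and MOGAT1. TSPAN1 was then at 223.8 ± 144.1 RPKM in LE and 44.53 ± 18.41 RPKM in GE, and 3BHSD at 76.13 ± 53.01 RPKM in LE and listed at 0 in GE (SD, n = 4). CRYAB was at 49.69 ± 39.98 and 11.84 ± 5.081 RPKM, and LY6G6C at 12.39 ± 12.09 RPKM in LE and listed at 0 in GE. For LY6G6C, 3BHSD, CRYAB and TSPAN1 the highest LE library of day 20 lay above the lowest of day 16. SLC36A2, a carrier of proline and glycine, did not pass the test between the tissues on day 16. It was at 81.29, 73.74, 106.5 and 140.9 RPKM in LE and 61.34, 47.19, 64.55 and 54.9 RPKM in GE, without overlap (0.77, adjusted p = 0.545). With the spread of the day 16 libraries alone its adjusted p was 0.0393. SLC36A2 averaged 0.04, 0.2025 and 4.783 RPKM in LE against 7.732, 21.44 and 91.39 RPKM in GE on days 10, 12 and 14. On day 20 the averages had the order of day 16, at 81.81 ± 75.15 RPKM in LE and 54.66 ± 9.555 RPKM in GE (SD, n = 4). Single LE libraries of day 20 ran from 0 to 173.2 RPKM. The test against the other days gave 3.82 (adjusted p = 0.0189, lost without LE replicate 31 or GE replicate 28). EdgeR on recovered reads called none of CRYGS, SLC13A5, MOGAT1, LY6G6C, 3BHSD, CRYAB and TSPAN1 in this test against the other days.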

How the data were processed

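LE and GE were captured by laser from uterine sections, and their RNA was SPIA-amplified, per the labels' protocols. The authors mapped reads to Oar v3.1, per the submitters' processing notes. Which aligner and counter were used is not given in the sources used here. For both epithelia the deposited values are RPKM, which the authors made, per the file headers, from exon reads, exon length and mapped reads. Deposited gene read counts of the conceptus served to recover exon length. Whole reads were then recovered for 18942 of 25197 features. Among values with a small relative rounding error, 100% of those worth up to 8 reads came out whole within 0.1 read. There were 67 to 1119 such values per library, and the size of a read was itself fitted to make low values whole. Of the features 23 had no identifier and were left out.

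Limma 3.58.1 (R 4.3.3) was fitted with its trend option to log2(RPKM + 1) of all 40 LE and GE libraries in 10 groups at once. Tested genes had 1 RPKM or more in 4 libraries, with Benjamini-Hochberg adjustment over all of them and a threshold of 0.05. P-values rest on the spread between libraries of the same group, pooled for each gene over all 10 groups and thus over all days. LE and GE were scaled in separate tables but per library. Alternatives were TMM, RLE and upper quartile scaling, scaling without mitochondrial reads, another pseudocount and other filters, a fit of day 16 alone, assumed pairs, each library left out, edgeR 4.0.16 and DESeq2 1.42.0. The fit was checked on simulated data.

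Named genes are, per direction, the 15 largest differences among genes with a symbol, a mean of at least 10 RPKM in the higher group and no overlap, up to 6 members per list by adjusted p, the 8 largest differences of day 16 from the other days per direction, and a set of core genes. EPCAM, CDH1, VIM, FOXJ1, CDX2, TFAP2C, GATA3, C5, LGALS8, PPARGC1A and PARP12 are named beyond that rule, as markers or to complete a count. Some genes that the rule names are not reported here. The comparison, members and 31 lists were chosen with earlier results of these data known. No genome of this build was used, so no coordinates are given.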

Additional observations from a re-analysis of the deposited data

Results flagged for a closer look

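Among 138 genes named in the text, 163 groups of 4 libraries with a highest value of at least 10 RPKM were screened for 1 library far from the others, and 10 had one, where chance gives about 1 in 20. In LE, replicate 25 was the library set apart in 6 genes. It stood high for FST (247.4 RPKM, group median 17.84), IGFBP1 (289.5 against 91.5), IRF2 (55.61 against 14.12), SLC5A1 (34.19 against 5.465) and MUC16 (13 against 5.875), and low for IFIT1 (10.4 against 37.38). Replicate 25 had the most exon reads of the LE libraries, and the part of depth was not tested. In GE, replicate 32 stood high for cystatin C (215.1 RPKM, group median 63.38), C4BPA (26.57 against 5.255) and RARRES2, a retinoid-responsive chemoattractant (63.9 against 5.5), and replicate 30 for LGALS15 (19.75 against 1.04).

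Differences here are signed LE minus GE, so a greater one is a shift to the side of LE and a smaller one a shift to the side of GE. For 29 of the named genes the day 16 difference between LE and GE departed from the mean of the other days (limma, adjusted p under 0.05). It was greater for CRYGS (6.35), LY6G6C (4.12), TSPAN1 (3.96), CRYAB (3.90), SLC36A2 (3.82), SLC13A5 (3.72), 3BHSD (3.55), MOGAT1 (3.52), CD55 (3.41), PTGES (2.78), PEPT1 (2.74), RAB25 (2.67), PRLR (2.07) and ITGB6 (2.06). PRLR was lower in LE than in GE on all 5 days, and its LE level was highest on day 16, at 5.205 ± 3.104 RPKM (SD, n = 4). Its shift was thus a narrower gap between the tissues. Smaller differences were found for CP (-4.57), IFIT1 (-4.51), ACMSD (-4.23), DDX58 (-4.13), MX2 (-4.11), ISG17 (-3.94), IFI6 (-3.79), RSAD2 (-3.75), IFIT2 (-3.49), MX1 (-2.79), CFI (-2.78), ZNFX1 (-2.65), CMPK2 (-2.55), PSMB9 (-2.31) and ERAP2 (-1.98). The call for ISG17 was lost whichever of the 8 day 16 libraries was left out, those for PEPT1, CD55 and RAB25 with 7 of the 8 and that for PTGES with 6. Without day 14 in the mean RAB25 came to 1.61 (adjusted p = 0.337), and its GE level on day 14 was 68.12 ± 31.67 RPKM (SD, n = 4). The calls for MX1, CFI, CMPK2 and ZNFX1 were lost without GE replicate 26, that for IFIT2 without LE replicate 25, that for IFI6 without LE replicate 27 and that for ACMSD without LE replicate 31. MX2, PSMB9 and ERAP2 each lost theirs with 3 of the 8 libraries, and ITGB6 and PRLR with 4. EdgeR on recovered reads kept 8 of the 29.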

How the results depend on the processing

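Genes higher in LE numbered 753 as deposited, 1271 in a fit of the 8 day 16 libraries alone and 1179 with DESeq2 on recovered reads. Genes higher in GE numbered 1750 as deposited, 990 after TMM, 1039 after RLE, 2973 in the fit of day 16 alone and 935 with edgeR. With 1 library left out the counts ranged from 570 to 715 and from 1282 to 1483, and all other alternatives kept them within 1.5 times. For day 16 against the other days, 71 greater and 79 smaller differences became 41 and 31 with a pseudocount of 0.1, 107 and 125 without day 14, and 7 and 20 with edgeR, and the greater ones 42 with a filter of 5 RPKM. With 1 library left out they ranged from 38 to 69 and from 38 to 74. A filter on day 16 libraries was added after seeing the data, and it kept every count within 1.5 times.

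Of 167 gene results in the text, 113 kept direction and side of the threshold under every alternative and 133 when any 1 library was left out. Directions turned only for 2 uncalled genes: IRF2 at 0.04 with edgeR and PAG1, a placental glycoprotein gene, at -0.05 without LE replicate 25 (0.60 as deposited, and up to 0.83 with another library left out). After TMM 13 results lost their call, with edgeR 36 and with a pseudocount of 0.1 18. The cause was not tested.

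Whether LE and GE libraries with adjoining numbers come from 1 animal is not in the labels. On day 16 their deviations from the group means correlated at 0.057 to 0.194, against -0.168 to 0.043 for other LE and GE libraries. All 4 LE libraries of day 16 correlated best with their neighbour. This did not hold on every day. LE replicate 15 of day 12 correlated at -0.065 with its neighbour and at 0.12 with GE replicate 10. The block nevertheless pairs neighbours on all days. With assumed pairs as a block 771 genes were higher in LE and 1732 in GE, and 70 and 75 differences were greater and smaller on day 16. For single genes the block gained the call of MX1 (adjusted p = 0.0315) and lost, against the other days, those of ISG17 (0.0791), ITGB6 (0.0558) and RAB25 (0.0513). Depth limits genes under 1 RPKM, where few reads stand behind a value.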

Other observations

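Outside the lists, families were counted by the start of their symbols, a choice made after their values were seen. Of 57 tested genes of cytosolic ribosomal proteins, 16 were higher in LE and 1 in GE as deposited (median 0.84 on the log2 scale), and 30 and 0 after TMM, against 6.76 and 15.7% of all tested genes as deposited. Near-identical copies of ribosomal protein genes can share reads, so single members are uncertain. Of 66 genes of mitochondrial ribosomal proteins, 2 were higher in LE and 0 in GE (median 0.44). Of 13 tested histone genes with a symbol, 7 were higher in GE and 0 in LE (median -1.43, and 6 and 1 after TMM). Zinc finger genes of the ZNF series gave 33 calls on the side of GE and 1 on the side of LE among 167 (median -0.64, and 22 and 1 after TMM). As deposited their share of GE calls was near the 15.7% of all tested genes, and their share of LE calls was below the 6.76%. Of the 182 tested SLC carriers 25 were higher in LE and 18 in GE (28 and 10 after TMM). Both as deposited and after TMM, the LE share was above and the GE share below that of all tested genes.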
